A study of Mus musculus with 36 samples.

Results

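The genes described here are the inhibitors of cyclin-dependent kinases (CDKs) and the retinoblastoma (RB) family. They were taken by gene name, with no threshold on a measured value: *Cdkn1b*, *Cdkn1c*, *Cdkn2a*, *Cdkn2b*, *Cdkn2c*, *Cdkn2d*, *Rb1*, *Rbl1* and *Rbl2*. All 9 were measured, among 19938 gene symbols, by a transcript cluster (the set of probes that stands for a gene on the array) that the platform annotation pairs with exactly 1 symbol. A symbol with more than 1 such cluster is represented by the brightest of them on average. The data come from 36 Affymetrix whole-transcript arrays of dendritic cells (DCs) of adult Balb/c mice. Bone marrow was cultured in 100 ng/ml of the growth factor GM-CSF, and cells were collected on day 6. Treated cultures received soluble thrombomodulin (sTM), the extracellular part of thrombomodulin (TM), at 200 nM from day 4. An anti-TM antibody and magnetic beads divided part of the cultures of experiments 2, 3 and 4 into TM+ and TM- DCs, giving 4 arrays of each fraction from untreated cultures (experiments 3 and 4) and 6 of each from sTM-treated cultures (experiments 2, 3 and 4). For unsorted DCs there were 8 untreated and 8 sTM-treated arrays, from experiments 1, 2 and 3. All groups share the mouse strain, the GM-CSF and the day of harvest, no label names a genetic change, the sort leaves some cells of the other kind in each fraction, and arrays of a group are labelled biological replicates, with no mention of separate mice or cultures. P-values therefore measure the spread between these arrays, which may be technical in part.

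CDKs drive cells from one phase of the division cycle to the next once they are bound by a cyclin. The INK4 proteins p16INK4a (*Cdkn2a*), p15INK4b (*Cdkn2b*), p18INK4c (*Cdkn2c*) and p19INK4d (*Cdkn2d*) bind CDK4 and CDK6 and keep D-type cyclins from activating them, whereas the CIP/KIP proteins p27KIP1 (*Cdkn1b*) and p57KIP2 (*Cdkn1c*) bind whole cyclin-CDK complexes. The RB family, made of RB (*Rb1*), p107 (*Rbl1*) and p130 (*Rbl2*), holds E2F transcription factors inactive until CDKs phosphorylate it. In myeloid cells these proteins take part in the exit from division that goes with differentiation. *Cdkn2a* also encodes p19ARF, which stabilizes p53, and the cluster of *Cdkn2a* cannot tell the transcripts of both proteins apart. *Cdkn1a* (p21) was not a member, since the only cluster that names it also names a second gene.

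Levels are given as log2 of the deposited intensity, and a difference of 1 on that scale is a doubling. Levels of different genes come from different probes and were not set against each other. A gene was called where limma's adjusted p, over the 19938 genes, was under 0.05. For TM+ against TM- DCs these were 3709 rises and 3729 falls, and the median difference of all genes was -0.08. Arrays of the same group and experiment correlated at 0.97 to 1.00 in sorted and 0.95 to 1.00 in unsorted DCs over all 35556 transcript clusters of the array. The mRNA of *Thbd*, the gene of thrombomodulin, by whose protein the cells were sorted, did not pass the test. It was 5.76 to 6.92 in TM+ and 5.65 to 6.50 in TM- DCs, a difference of 0.24 (standard error 0.12, adjusted p = 0.120). Of 9 DC marker genes, TM+ DCs had 6 higher and 2 lower, and both fractions carried them, with a summed level (log2 of the summed intensities) between 13.9 and 14.8. In TM+ DCs 8 of 11 granulocyte markers rose and 0 fell, and 7 of 7 proliferation markers rose. The 4 lymphoid markers measured had no call.

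The stretches upstream of the genes are shown first, because E2F factors, which the RB family holds in check, bind short GC-rich words in promoters, and *Rbl1* and *Cdkn2a* have such letters just before a start site. The 100 bases before the annotated start are given 5′ to 3′ for the 5 genes that differed between TM+ and TM- DCs and for *Cdkn2a*, from RefSeq on the C57BL/6J build GRCm38.p6. For *Cdkn2a* and *Cdkn2c*, which have more than 1 annotated start, the stretch is that of the start farther upstream. Capitals mark the letters searched for E2F, and the rest is in lower case.
Rbl1, chr2:157204535-157204634, minus strand: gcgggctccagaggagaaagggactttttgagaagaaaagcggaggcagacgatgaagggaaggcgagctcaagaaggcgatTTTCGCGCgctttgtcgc
Cdkn2a, chr4:89294620-89294719, minus strand: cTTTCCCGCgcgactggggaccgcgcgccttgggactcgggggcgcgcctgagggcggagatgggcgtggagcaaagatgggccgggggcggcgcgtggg
Cdkn2c, chr4:109666757-109666856, minus strand: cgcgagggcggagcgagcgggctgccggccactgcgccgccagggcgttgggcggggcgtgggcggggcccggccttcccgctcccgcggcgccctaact
Cdkn2d, chr9:21291210-21291309, minus strand: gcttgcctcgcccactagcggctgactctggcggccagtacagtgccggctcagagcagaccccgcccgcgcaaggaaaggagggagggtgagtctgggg
Cdkn1b, chr6:134920301-134920400, plus strand: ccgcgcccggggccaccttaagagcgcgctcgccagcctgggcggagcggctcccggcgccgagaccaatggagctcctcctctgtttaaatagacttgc
Cdkn2b, chr4:89311033-89311132, minus strand: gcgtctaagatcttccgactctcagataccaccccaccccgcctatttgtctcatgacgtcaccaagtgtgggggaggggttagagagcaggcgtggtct
The letters searched were TTTCCCGC, TTTGGCGC, TTTCGCGC, TTTGCCGC, TTCCCGCC and TTGGCGCC for E2F, which overlap one another in places, and TTTGAA for the cell cycle homology region (CHR), through which complexes with p107 or p130 act, all on both strands of windows from 250 bases before to 50 after a start. The tables held 9 windows for 7 of the genes and no entry for *Rb1* and *Cdkn1c*. E2F letters were in 2 of the 9 windows, those of *Rbl1* (bases -18 to -11) and of the upstream start of *Cdkn2a* (bases -99 to -92), and in 4.45% of all 32851 windows. The window of the downstream start of *Cdkn2a* had none, so the match belongs to only 1 of its starts. CHR letters were in 2 of the 9, those of *Cdkn2b* and *Rbl2*, and in 17.9% of all windows. These matches describe letters only, in a strain other than that of the mice used.

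Of the 9 genes, 5 differed between TM+ and TM- DCs (mean of untreated and sTM-treated cultures). *Rbl1*, *Cdkn2c* and *Cdkn2d* were higher in TM+ DCs, by 2.68, 2.51 and 1.48 times, and *Cdkn2b* and *Cdkn1b* were lower, by 1.54 and 1.34 times. *Cdkn2a*, *Cdkn1c*, *Rb1* and *Rbl2* had differences between -0.24 and -0.09 that did not pass the test. Among all genes, 18.6% were called higher and 18.7% lower, so that calls in either direction are common in this comparison. The median difference of the 9 genes was -0.13. As RNA of whole cell populations was measured, fewer cells of a type and less RNA per cell cannot be told apart in any of these values.

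**Figure D1:**
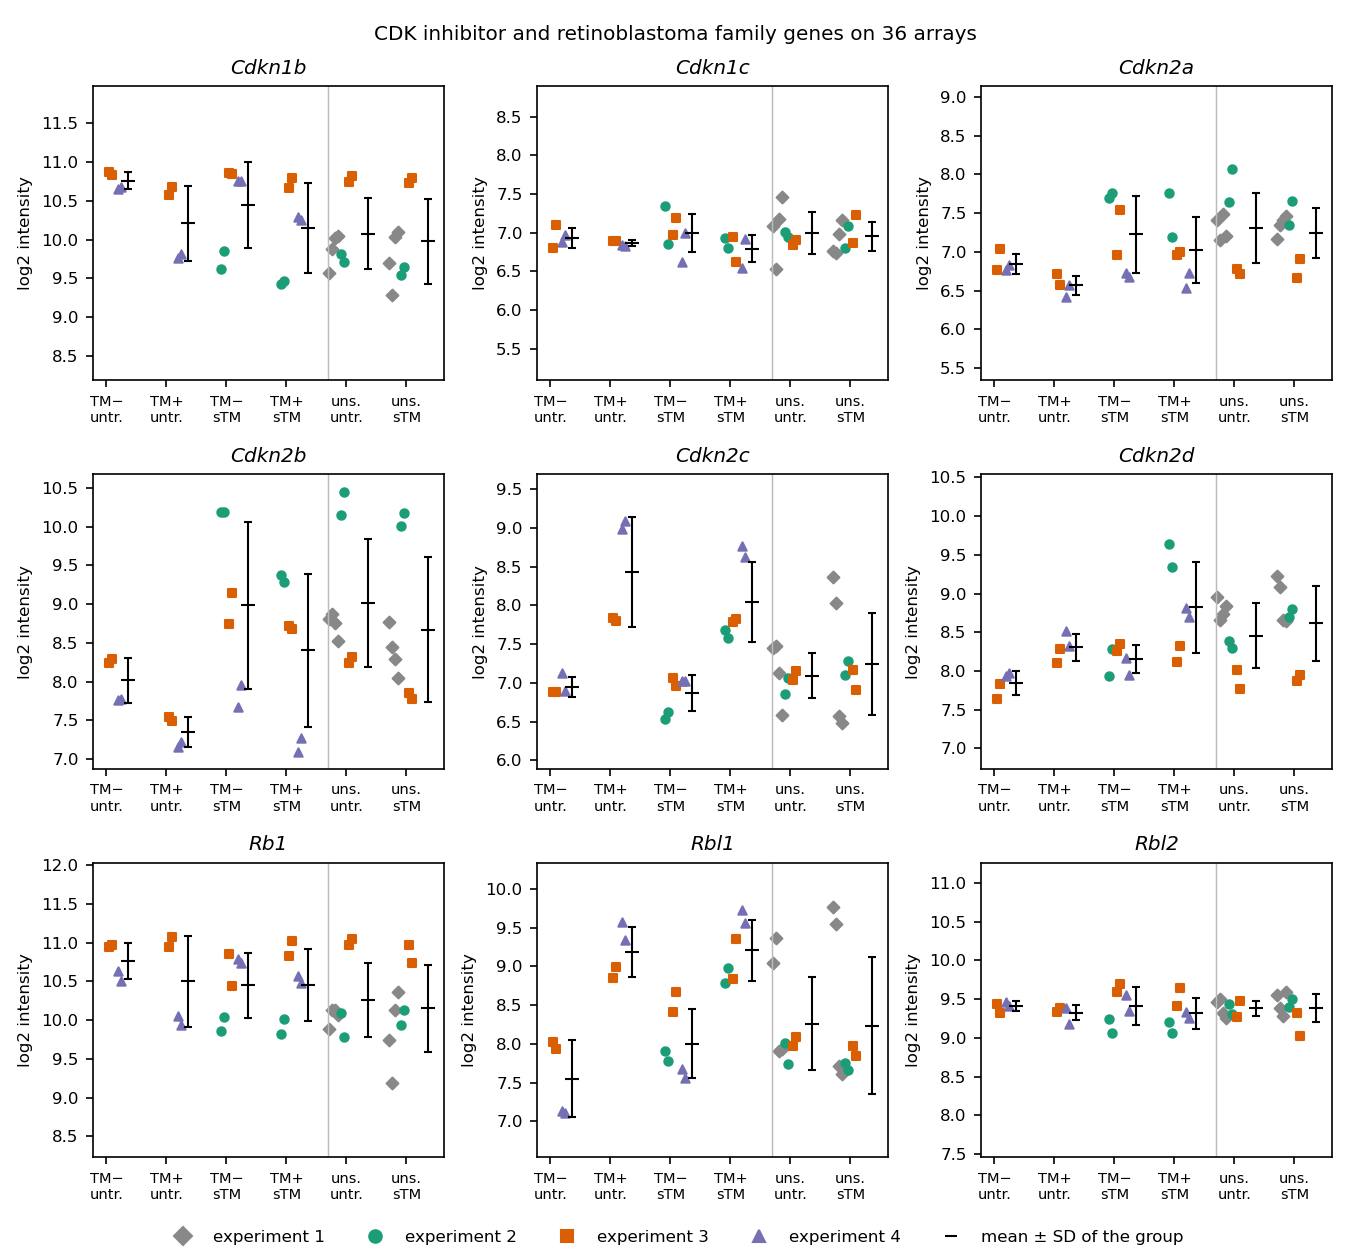
Log2 intensity (vertical axis, the same span in each panel) of the 9 genes on all 36 arrays by group (TM- and TM+ DCs of untreated and sTM-treated cultures on the left of the grey line, unsorted DCs on the right). Each point is 1 array, shape and colour give the experiment, and the bars are the mean ± SD of a group. *Rbl1* and *Cdkn2c* are the genes whose TM+ arrays all lie above all TM- arrays (lowest TM+ 8.79 and 7.58, highest TM- 8.67 and 7.13), and the experiments stand apart for *Cdkn1b*, *Cdkn2b* and *Rb1*.

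In the RB family the difference lay with p107. In untreated cultures *Rbl1* was 8.85, 9.0, 9.57 and 9.34 in TM+ DCs and 8.03, 7.93, 7.14 and 7.11 in TM- DCs. In sTM-treated cultures it was 8.79 to 9.73 (median 9.17) in TM+ DCs and 7.57 to 8.67 (median 7.85) in TM- DCs. All 10 TM+ arrays thus lay above all 10 TM- arrays, which was true of 2.20% of all genes. The difference was 1.42 (standard error 0.16, adjusted p = 6.46e-07), and *Rbl1* was higher in TM+ DCs in 10 of 10 pairs of arrays with the same experiment, treatment and number, as were 8.26% of all genes.

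*Rb1*, the founding member of the family, was 10.95, 11.07, 10.06 and 9.94 in untreated TM+ DCs and 10.95, 10.96, 10.64 and 10.51 in untreated TM- DCs. In sTM-treated cultures it was 9.82 to 11.02 (median 10.53) in TM+ DCs and 9.86 to 10.85 (median 10.59) in TM- DCs, so that the fractions overlapped in both. Its difference was -0.13 with a 95% confidence interval from -0.39 to 0.13 (adjusted p = 0.403). *Rbl2*, whose protein p130 is bound to E2F4 mainly in cells at rest, was 9.06 to 9.70 over the 20 sorted arrays. It was 9.34, 9.39, 9.38 and 9.18 in untreated TM+ DCs and 9.44, 9.32, 9.47 and 9.41 in untreated TM- DCs. Its difference was -0.09 with a confidence interval from -0.23 to 0.05 (adjusted p = 0.272), which leaves out changes of the size seen for *Rbl1*.

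Among the INK4 genes *Cdkn2c* and *Cdkn2d* went with the TM+ fraction. *Cdkn2c* was 7.83, 7.80, 8.98 and 9.09 in untreated TM+ DCs and 6.88, 6.88, 7.13 and 6.89 in untreated TM- DCs. In sTM-treated cultures it was 7.58 to 8.77 (median 7.80) in TM+ and 6.53 to 7.06 (median 6.99) in TM- DCs. Again no TM- array reached the lowest TM+ array. The difference was 1.33 (standard error 0.13, adjusted p = 8.81e-08), in 10 of 10 pairs.

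*Cdkn2d* was 8.10, 8.28, 8.52 and 8.32 in untreated TM+ DCs against 7.64, 7.84, 7.94 and 7.97 in untreated TM- DCs. In sTM-treated cultures it was 8.11 to 9.64 (median 8.76) in TM+ and 7.94 to 8.35 (median 8.21) in TM- DCs. The untreated fractions did not overlap and the sTM-treated ones did. The share of all genes without overlap in untreated cultures was not counted. The difference was 0.56 (standard error 0.13, adjusted p = 0.00158), and 8 of 10 pairs were higher in TM+ DCs. Both exceptions were the pairs of sTM-treated cultures of experiment 3.

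*Cdkn2b* and *Cdkn1b* went the other way. *Cdkn2b*, whose transcription is known to be raised by TGF-beta, was 7.54, 7.49, 7.15 and 7.22 in untreated TM+ DCs and 8.24, 8.29, 7.76 and 7.78 in untreated TM- DCs. In sTM-treated cultures it was 7.10 to 9.38 (median 8.70) in TM+ and 7.67 to 10.2 (median 8.94) in TM- DCs. The ranges of the treated fractions overlapped widely because the experiments lay far apart, but within each of the 5 sets of 1 experiment and 1 treatment both TM- arrays lay above both TM+ arrays. The difference was -0.62 (standard error 0.19, adjusted p = 0.0147), and *Cdkn2b* was lower in TM+ DCs in 10 of 10 pairs, as were 6.14% of all genes. Separation in all 5 sets, which implies 10 of 10 pairs, was not counted over all genes.

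*Cdkn1b* (p27) was 10.58, 10.68, 9.77 and 9.82 in untreated TM+ DCs and 10.88, 10.83, 10.65 and 10.68 in untreated TM- DCs. In sTM-treated cultures it was 9.43 to 10.79 (median 10.27) in TM+ and 9.62 to 10.86 (median 10.76) in TM- DCs. The fractions overlapped between experiments, and within all 5 sets the TM- arrays were above the TM+ arrays. The difference was -0.42 (standard error 0.12, adjusted p = 0.00900), with TM+ DCs lower in 10 of 10 pairs, as were 6.14% of all genes. Its separation in all 5 sets was likewise not counted over all genes. A second and dimmer cluster of *Cdkn1b* gave -0.37 (standard error 0.18), which did not pass the test (adjusted p = 0.127).

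Neither *Cdkn2a* nor *Cdkn1c* was called. *Cdkn2a* was 6.71, 6.57, 6.42 and 6.58 in untreated TM+ and 6.76, 7.04, 6.76 and 6.83 in untreated TM- DCs, which did not overlap, but the sTM-treated fractions shared the range from 6.67 to 7.76. Its difference was -0.24 (standard error 0.11, adjusted p = 0.0823), and it was lower in 8 of 10 pairs. *Cdkn1c*, an imprinted gene, was 6.54 to 6.94 in TM+ and 6.63 to 7.34 in TM- DCs over both treatments. Its difference was -0.14 (standard error 0.08, adjusted p = 0.164), and it was lower in 9 of 10 pairs. For each of these genes, the TM- arrays lay above the TM+ arrays in 2 sets of the same experiment and treatment. In the other 3 sets the fractions overlapped, and there the count of pairs depends on the array numbers. The shares of all genes that separate in 2 sets, or in untreated cultures, were not counted. The clusters of both genes had means at the 56.9th and 54.0th percentile of all clusters on the array, where no detection call was available to tell a low level from background.

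**Figure D2:**
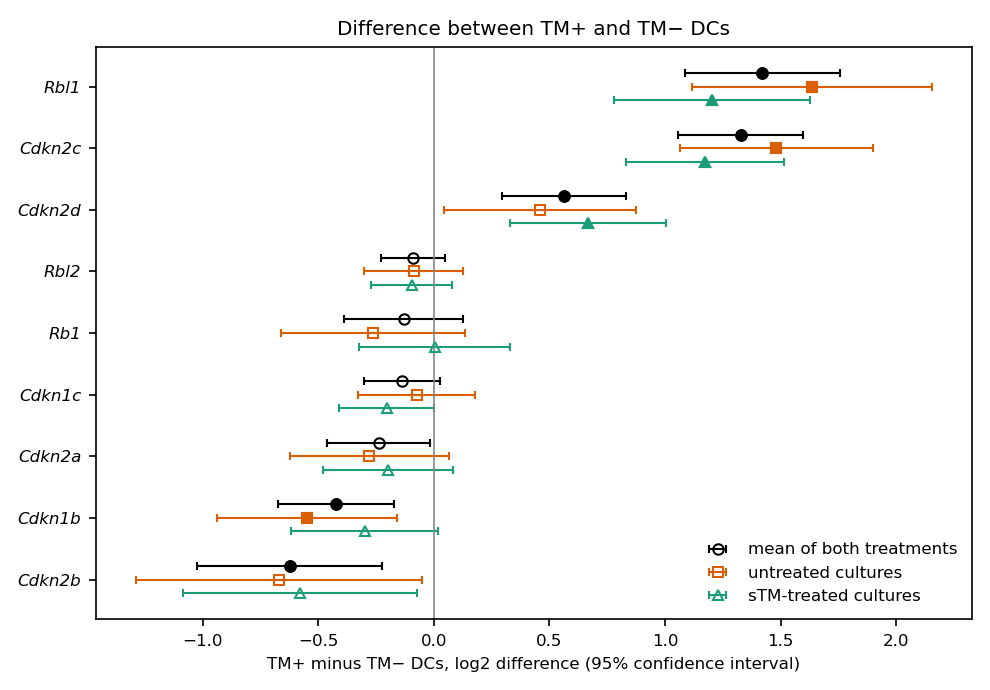
Difference in log2 intensity between TM+ and TM- DCs (horizontal axis, with 95% confidence intervals from limma) for each of the 9 genes, as the mean of both treatments (circles), in untreated (squares) and in sTM-treated cultures (triangles). Filled symbols passed the test. *Rbl1* and *Cdkn2c* lie to the right of 1 in all 3 comparisons, and the 3 estimates of each gene overlap in their intervals.

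The fractions were also compared within each treatment. In untreated cultures 3 of the 9 genes were called, against 21.1% of all genes. *Rbl1* was higher in TM+ DCs by 1.64 (standard error 0.25, adjusted p = 6.43e-05), *Cdkn2c* was higher by 1.48 (standard error 0.20, adjusted p = 1.84e-05) and *Cdkn1b* was lower, with -0.55 (standard error 0.19, adjusted p = 0.0404). The call of *Cdkn1b* was lost on leaving out 1 array in 5 of 20 cases (untreated TM- array 2 of experiment 3 and each untreated array of experiment 4), with adjusted p up to 0.158. In sTM-treated cultures 3 of the 9 genes were called, against 24.0% of all genes. There the differences were 1.20 for *Rbl1* (standard error 0.20, adjusted p = 0.000219), 1.17 for *Cdkn2c* (standard error 0.16, adjusted p = 2.74e-05) and 0.67 for *Cdkn2d* (standard error 0.16, adjusted p = 0.00530). Calls that differ between untreated and treated cultures do not show different effects. The interaction, which tests that difference, called 0 of the 9 genes and 0.0100% of all genes. Its estimates for the 9 genes ran from -0.43 (*Rbl1*) to 0.27 (*Rb1*), the lowest adjusted p was 0.932, and none had an unadjusted p under 0.05. The confidence intervals were wide, with a median width of 1.03, so that differences in effect of about 0.5 in either direction could not be seen.

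The size of the differences depended on the experiment. *Rbl1* was higher in TM+ DCs by 2.33 in untreated and 2.02 in sTM-treated cultures of experiment 4, against 0.95 and 0.55 in experiment 3 and 1.04 in the treated cultures of experiment 2. *Cdkn2c* was higher by 2.02 and 1.67 in experiment 4, by 0.94 and 0.79 in experiment 3 and by 1.06 in experiment 2. Both genes thus differed most in experiment 4. For *Cdkn1b* the differences were -0.87 and -0.48 in experiment 4, -0.22 and -0.12 in experiment 3 and -0.29 in experiment 2. Without experiment 4, *Rbl1* (0.87), *Cdkn2c* (0.93) and *Cdkn2b* (-0.65) still passed the test, and *Cdkn1b* (-0.21, adjusted p = 0.540) and *Cdkn2d* (0.55, adjusted p = 0.106) did not. Of all genes 12.4% were then called, against 37.3% with all experiments. *Cdkn2d* differed most in experiment 2, by 1.38, and had -0.09 in the treated cultures of experiment 3. *Cdkn2b* was lower in all 5 sets, by -0.24 to -0.86. *Rb1* changed sign between experiments, from -0.58 in untreated cultures of experiment 4 to 0.28 in treated cultures of experiment 3. It was called at -0.35 once experiment 3 was left out (adjusted p = 0.0176), as were 46.0% of all genes.

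Markers of dividing cells and of other cell types also differed between the fractions. The summed level of the 7 proliferation markers was 12.8 to 13.7 in untreated TM+, 11.3 to 11.6 in untreated TM-, 11.5 to 13.6 in treated TM+ and 9.97 to 11.9 in treated TM- DCs. That of the 11 granulocyte markers was 13.8 to 14.5, 13.0 to 13.3, 13.1 to 14.0 and 12.6 to 13.3 in the same order. *S100a9*, a calcium-binding protein abundant in neutrophils, differed between the fractions of untreated cultures by 2.93 in experiment 3 and 2.51 in experiment 4. In treated cultures it differed by 2.5, 0.61 and 1.69 in experiments 2, 3 and 4. The summed level of 5 markers of mast cells, basophils and eosinophils, of which 2 rose and 0 fell in TM+ DCs, was 10.4 to 11.2, 8.47 to 9.43, 9.03 to 10.9 and 7.74 to 9.69 in that order of groups. Of 6 monocyte and macrophage markers 4 rose and 1 fell, with sums of 13.8 to 13.9, 14.0 to 14.1, 13.8 to 14.1 and 13.6 to 14.0. The brightest genes weigh most in such sums. *Ccr2* was higher by 4.04 (standard error 0.15, adjusted p = 1.20e-13), *Mrc1* by 2.76, *Fcgr1* by 0.71 and *Csf1r* by 0.32. *Cd14* was lower (-0.87). Of 5 progenitor markers 1 rose (*Cd34*, 0.95) and 2 fell (*Kit*, -0.77, and *Cd27*, -0.17). Their sums were 11.3 to 12.4, 11.1 to 11.6, 10.6 to 12.0 and 9.80 to 12.0. The part of any of these cell types in the differences of the 9 genes was not tested.

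**Figure D3:**
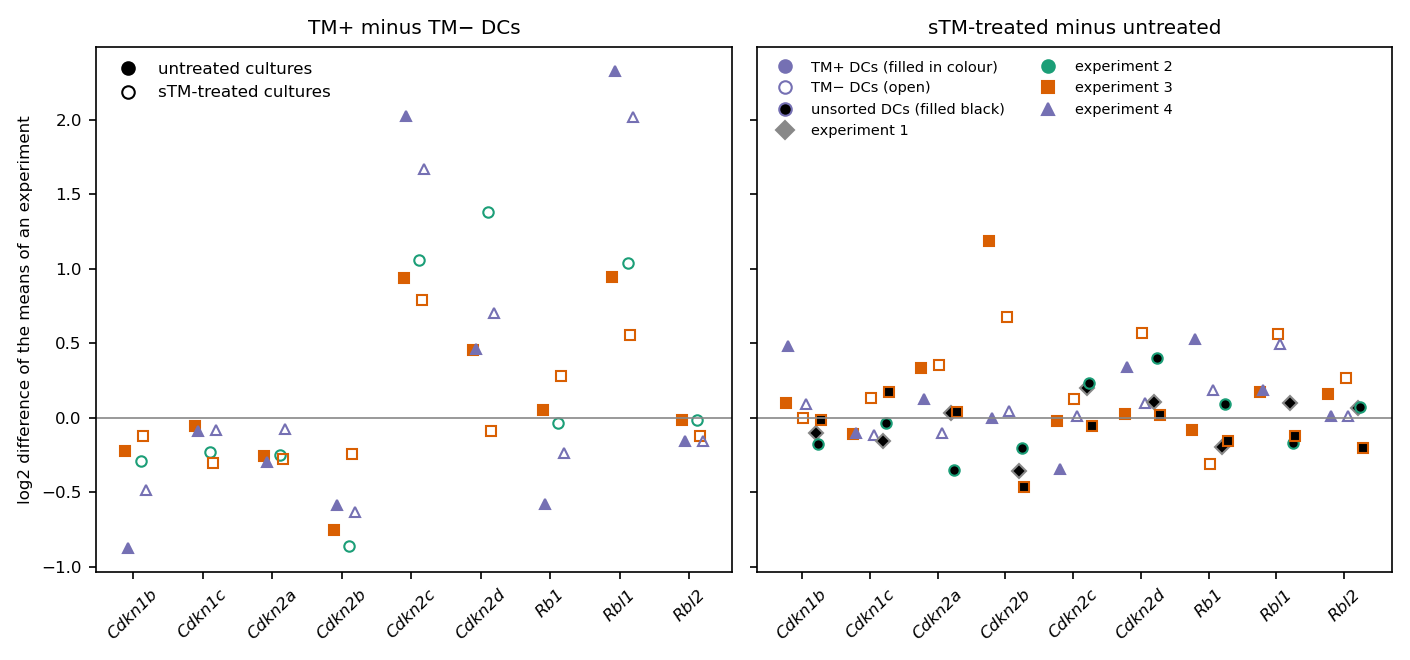
Differences of the 9 genes within single experiments (vertical axis, log2 difference of the means of the arrays of 1 experiment). Left, TM+ minus TM- DCs in untreated (filled) and sTM-treated (open) cultures. Right, sTM-treated minus untreated cultures in TM+ (filled in colour), TM- (open) and unsorted DCs (black). Shapes give the experiment as in the legend on the right. *Rbl1* reaches 2.33 and *Cdkn2c* 2.02 in experiment 4, and the largest difference with treatment is that of *Cdkn2b* in TM+ DCs of experiment 3, at 1.19.

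None of the 9 genes was called for treatment with sTM. In sorted DCs (mean of TM+ and TM-) the call rate over all genes was 0.0150%, and the differences of the 9 genes ran from -0.10 (*Cdkn2c*) to 0.63 (*Cdkn2b*). At an unadjusted p under 0.05 were 3 of the 9, *Cdkn2a*, *Cdkn2b* and *Cdkn2d*, beside 1607 of all 19938 genes, and 0 of the 9 passed the adjusted test. For *Cdkn2b* the estimate was 0.63 (standard error 0.21, adjusted p = 0.306). Experiment 2, with treated sorted arrays only and the highest levels of this gene, also enters it, and in sorted DCs its level cannot be told apart from treatment. In unsorted DCs of experiment 2 *Cdkn2b* was 10.15 and 10.45 on the untreated and 10.01 and 10.18 on the treated arrays. Within experiments the difference was 1.19 in TM+ and 0.68 in TM- DCs of experiment 3. In experiment 4 it was -0.0002 and 0.05. In experiment 3 the untreated TM+ arrays were at 7.54 and 7.49 and the treated ones at 8.72 and 8.68, and the TM- arrays went from 8.24 and 8.29 to 8.74 and 9.15. In the same TM+ DCs of experiment 3 *S100a9* went from 9.91 and 10.11 to 6.69 and 6.81, and within TM+ DCs 4 of the 11 granulocyte markers were called lower with treatment and 0 higher. Their part was not tested. In experiment 4 the treated TM+ arrays (7.10 and 7.27) spanned the untreated ones (7.15 and 7.22). Without experiment 4, *Cdkn2b* was called at 1.04 (adjusted p = 0.00339), as were 2.28% of all genes, with experiment 2 again among the treated arrays only. In the unsorted DCs of experiment 3 the treated arrays (7.85 and 7.77) were below the untreated arrays (8.24 and 8.32).

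Within TM+ DCs 0.853% of all genes and 0 of the 9 were called, with estimates from -0.26 to 0.67 and a lowest adjusted p of 0.377 (*Cdkn2b*). There 2 of the 9 had an unadjusted p under 0.05, beside 2026 of all 19938 genes. Within TM- DCs 0% of all genes and 0 of the 9 were called. *Rbl1* there had an unadjusted p under 0.05, as did 722 of all 19938 genes, with an estimate of 0.54 and a 95% confidence interval from 0.05 to 1.03. Its untreated TM- arrays were at 8.03, 7.93, 7.14 and 7.11, and the treated ones of the same experiments at 8.42, 8.67, 7.68 and 7.57, higher in both. In unsorted DCs 0% of all genes (940 at an unadjusted p under 0.05) and 0 of the 9 were called, and none of the 9 had an unadjusted p under 0.05. The estimates there ran from -0.34 (*Cdkn2b*, confidence interval from -0.81 to 0.12) to 0.16 (*Cdkn2d*, confidence interval from -0.12 to 0.43).

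The levels of the genes also differed between experiments. *Cdkn2b* was 9.29 to 10.5 on the 8 arrays of experiment 2, 8.05 to 8.87 on the 8 of experiment 1, 7.49 to 9.15 on the 12 of experiment 3 and 7.10 to 7.96 on the 8 of experiment 4. The arrays of experiment 2 were thus above those of all other experiments, sorted or not. *Cdkn2a*, its neighbour among the coding genes of chromosome 4, had its highest median in the same experiment, 7.68, and its lowest in experiment 4, 6.70. *Cdkn1b* had its lowest median in experiment 2, at 9.43 to 9.85, and its highest in experiment 3, at 10.58 to 10.88, without overlap. *Rb1* was 9.79 to 10.14 in experiment 2 and 10.44 to 11.07 in experiment 3, also without overlap. *Rbl2* varied least in its medians, from 9.28 to 9.43 over the 4 experiments. The labels number the experiments without saying in what they differed.

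Unsorted cultures of experiments 2 and 3 could be set beside the fractions of the same experiment and treatment in 27 comparisons, 3 for each gene. The mean of the unsorted arrays lay between those of TM+ and TM- DCs in 17 of them, below both in 7 and above both in 3. For *Cdkn2c* it lay between them in all 3, at 7.19 against 7.63 and 6.57 in treated cultures of experiment 2, at 7.09 against 7.82 and 6.88 in untreated and at 7.04 against 7.80 and 7.01 in treated cultures of experiment 3. *Rbl1* in unsorted DCs was nearer to the TM- fraction in all 3, at 7.71, 8.03 and 7.91 against 7.85, 7.98 and 8.54 in TM- DCs, and fell below it in the treated cultures of both experiments. The greatest distance of *Cdkn2b* from both fractions was in treated cultures of experiment 3, with 7.81 in unsorted, 8.70 in TM+ and 8.94 in TM- DCs.

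The unsorted arrays of experiment 1 fell apart by their array number. *Rbl1* was 9.04 and 9.37 on arrays 1 and 2 of the untreated cultures and 7.91 and 7.94 on arrays 3 and 4. In the sTM-treated cultures it was 9.76 and 9.55 on arrays 1 and 2 and 7.72 and 7.61 on arrays 3 and 4. *Cdkn2c* followed the same division, with 7.45 and 7.48 against 7.13 and 6.59 in untreated and 8.37 and 8.03 against 6.57 and 6.49 in treated cultures. *Cdkn1b* ran opposite, with 9.56 and 9.88 against 10.03 and 10.05 in untreated and 9.70 and 9.29 against 10.03 and 10.09 in treated cultures. *Cdkn2b*, which was lower in TM+ DCs, was higher on arrays 1 and 2. It was 8.80 and 8.87 against 8.76 and 8.53 in untreated and 8.77 and 8.44 against 8.29 and 8.05 in treated cultures. *Cdkn2d* overlapped in untreated cultures (8.95 and 8.66 against 8.74 and 8.84) and was higher on arrays 1 and 2 in treated ones (9.22 and 9.09 against 8.66 and 8.65). *S100a9* was 8.14 and 7.87 against 7.0 and 7.09 in untreated and 9.14 and 8.97 against 7.24 and 7.23 in treated cultures, and *Mki67*, a marker of dividing cells, was 10.29 and 10.20 against 9.95 and 9.94 and 10.49 and 10.06 against 10.01 and 10.15. The labels do not say what arrays with the same number share, and the part of either marker was not tested. Without arrays 1 and 2 of both treatments, none of the 9 genes was called for treatment in unsorted DCs either.

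**Figure D4:**
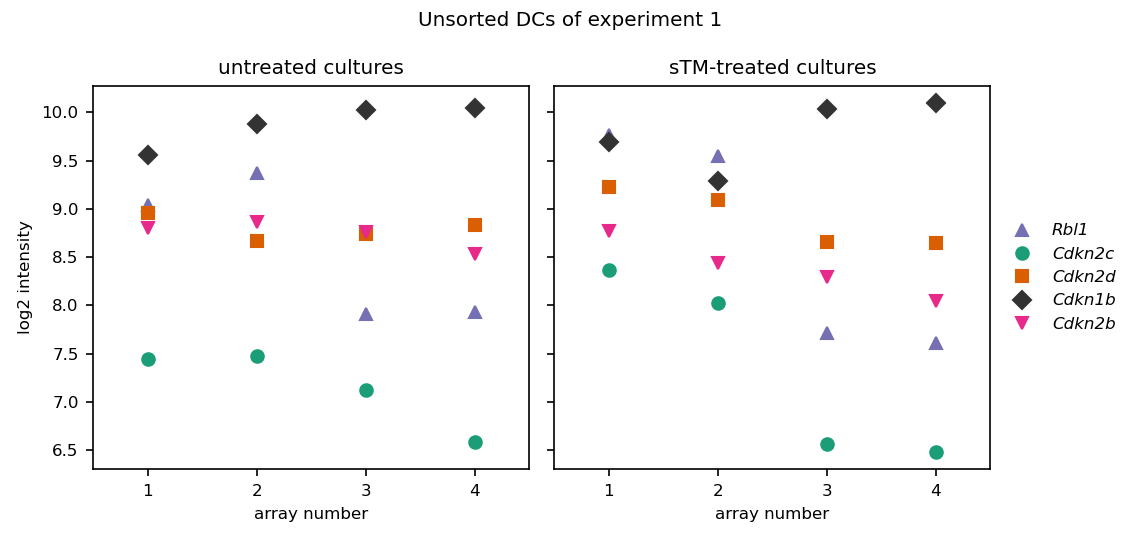
Log2 intensity (vertical axis) of the 5 genes called between TM+ and TM- DCs on the 4 arrays of unsorted DCs of each treatment in experiment 1, by array number (horizontal axis). Each point is 1 array, and heights are to be read within a gene only. *Rbl1* lies between 9.04 and 9.76 on arrays 1 and 2 and between 7.61 and 7.94 on arrays 3 and 4.

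The genes that the members act on were read from lists of the same pathway. Of 14 cyclins and CDKs measured, 11 rose and 2 fell in TM+ DCs, with a median difference of 1.10 beside -0.08 for all genes. *Ccna2* (cyclin A2) was higher by 3.65, *Ccnb2* (cyclin B2) by 3.41, *Cdk1*, the kinase of mitosis, by 2.06 and *Ccnd1* (cyclin D1) by 1.96. The targets of the INK4 proteins parted, with *Cdk4* higher by 0.67 (standard error 0.08, adjusted p = 6.04e-07) and *Cdk6* lower by -0.49 (standard error 0.08, adjusted p = 8.43e-05). *Ccnd2* was lower as well (-0.40, adjusted p = 0.0399), while *Ccnd3* was higher (0.64, adjusted p = 0.00277).

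Of 10 E2F and DP factors, the partners of the RB family, 8 were higher and 1 lower, with a median of 0.81. *E2f8* and *E2f7*, repressors that act late in the cycle, were higher by 1.18 and 1.03, and *E2f6*, a repressor that the RB family does not bind, by 1.07. *E2f5*, which binds p130, was the one that was lower (-1.10, standard error 0.18, adjusted p = 5.50e-05). *E2f4*, the other E2F that p107 and p130 bind, was higher by 0.45 (adjusted p = 0.00384), and *E2f1* was not called (0.15, adjusted p = 0.199). All 24 E2F target genes of DNA replication that were measured were higher, with a median of 1.47, among them *Rrm2* and *Rrm1*, subunits of ribonucleotide reductase, by 2.61 and 1.86, *Pole*, the leading-strand polymerase, by 2.40, and *Mcm6* and *Mcm5* of the replicative helicase by 2.14 and 2.03. Of 7 genes listed for the MuvB and DREAM complexes, in the latter of which p107 and p130 join E2F, 3 were higher and 1 lower. In the MuvB core *Lin9* was higher (0.26, adjusted p = 0.0478) and *Lin37* lower (-0.29, adjusted p = 0.0425). The other rises were those of *Foxm1* and *Mybl2*, by 2.10 and 0.99, the factors that replace p107 and p130 in dividing cells.

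For the degradation of p27, 8 of 12 genes were higher and 0 lower, with a median of 0.34. *Cks1b* and *Skp2*, which together present phosphorylated p27 to its ubiquitin ligase, were higher by 2.38 and 0.66, *Cks2* by 0.94 and *Cul4b* by 0.41. Of 21 regulators of the CDK inhibitor genes, 5 were higher and 9 lower, and their median of -0.03 was close to that of all genes. *Myc* was higher by 2.29 and *Id1* by 1.15, and *Mdm2*, the ligase of p53 that ARF blocks, was lower (-1.27), as was *Foxo1* (-0.86), an activator of *Cdkn1b*. Of 12 corepressors and other partners of RB, 6 were higher and 1 lower, with a median of 0.26, led by *Rbbp6* (0.71), *Rbbp7* (0.69), *Hdac2* (0.64) and *Dnmt1* (0.62). In a list of 3 further genes grouped with the CDK inhibitors, 1 was higher and 0 lower, with a median of 0.26. The gene called was *Cdkn3*, a phosphatase of CDKs that is named with the inhibitors, higher by 1.98. In none of these lists was a gene called for treatment in sorted or unsorted DCs.

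**Figure D5:**
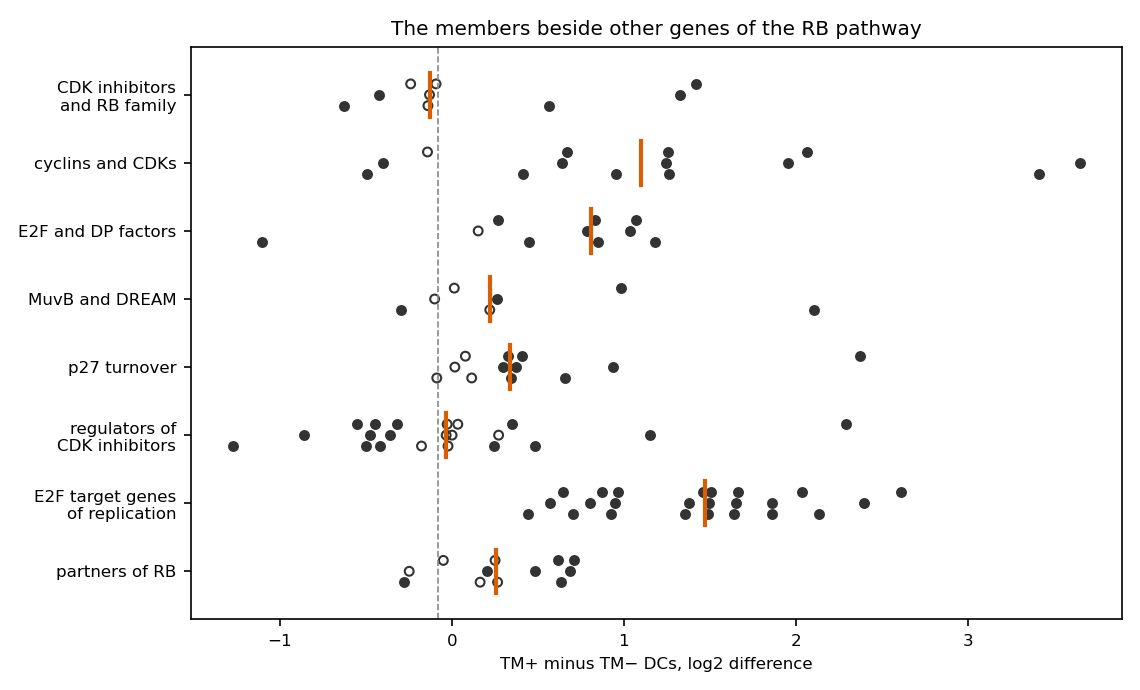
Difference in log2 intensity between TM+ and TM- DCs (horizontal axis) for the 9 genes (top) and for the genes of 7 lists of the same pathway, 1 point a gene, filled where it passed the test. Orange bars are the median of a list and the dashed line is that of all genes (-0.08). The 24 replication genes are all filled and right of 0, and the 9 genes in the top row lie on both sides.

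For each gene, the other genes whose log2 levels ran most like its own were found over the 20 sorted arrays, among genes above the median mean level, as Pearson's r. These arrays share experiments and fractions, and the values describe them only. *Cdkn2c* ran most like *Tpx2* (r = 0.98), a microtubule factor of the spindle, and *H2bc14* (0.98), a histone. *Rbl1* ran like *Tlr8* (0.97) and *Atp2a3* (0.96), *Cdkn2d* like *Mzt2* and *Aldh16a1* (both 0.91). *Cdkn1b* ran like *Tet2* and *Bsg* (both 0.98), *Cdkn2b* like *Pbxip1* (0.95) and *Chmp7* (0.94), and *Cdkn2a* like its neighbour *Cdkn2b* (0.94) and *LTO1* (0.92). The closest to *Rb1* were *Tab2* and *Ak4* (both 0.95), to *Rbl2* *Azi2* (0.90) and *Ankrd16* (0.88), and to *Cdkn1c* *Tns1* (0.85) and *C1ql2* (0.84).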

How the data were processed

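The authors normalized the arrays and summarized probes with robust multi-array averaging (RMA), and deposited linear intensities. Arrays have no read depth, so precision is set by how many arrays there are. No column was left out, and detection calls were not used here. The log2 was taken with no filter or scaling, and probes were named from the platform annotation. Of 35556 clusters, 21789 had 1 symbol, 1621 several and 12146 none, and 999 symbols had more than 1 cluster. The RefSeq table of GRCm38.p6 held the gene ID of 19856 of the 19938 symbols.

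Sorted and unsorted DCs were fitted apart with limma 3.58.1 (statmod 1.5.0, R 4.3.3). Sorting, treatment and the interaction of both were the terms for sorted DCs. Experiment was a random block, with estimated correlations of 0.40 in sorted and 0.37 in unsorted DCs. P-values were adjusted by the Benjamini-Hochberg method over all genes. Experiment 2 has no untreated sorted DCs, so that treatment effects lean on experiments 3 and 4. With experiment as a random block, the treated arrays of experiment 2 also enter these effects, and its level is in part read as treatment. The script was tested on simulated data. Pearson correlations, motif searches and figures were made with Python 3.11.15, numpy 2.4.6, pandas 2.3.3 and matplotlib 3.10.9.

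The members were taken by name with no cut on a value, but they, the lists of pathway and marker genes and the motifs were chosen with earlier results of these data known. Named are all 9 members, up to 4 of the largest called differences of a list, the 2 genes most like each member, and *Thbd*. *Cdk4*, *Cdk6*, *Ccnd2*, *Ccnd3*, *E2f1*, *E2f4*, *Rrm1*, *S100a9* and *Mki67* were named after their values were seen. The same holds for the monocyte, macrophage and progenitor markers *Ccr2*, *Mrc1*, *Fcgr1*, *Csf1r*, *Cd14*, *Cd34*, *Kit* and *Cd27*. Alternatives were a fixed experiment term or none, a replicate block, a filter below the 25th percentile, all clusters, array weights, quantile normalization, centring on the 75th percentile (over the genes tested), trended robust moderation, and leaving out each array or experiment. Leaving out arrays 1 and 2 of experiment 1, and fitting experiment 1 alone, were chosen after seeing the data.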

Additional observations from a re-analysis of the deposited data

Results flagged for a closer look

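In the 54 groups of 4 to 8 arrays that the 9 genes form, 1 array stood apart from the rest of its group by Dixon's criterion, which chance alone meets in about 1 in 20 groups. It was *Cdkn2c* on array 1 of experiment 4 in untreated TM- DCs, at 7.13 against 6.88, 6.88 and 6.89 on the other arrays. It still lay below all TM+ arrays, and *Cdkn2c* was called without it.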

How the results depend on the processing

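*Rbl1* and *Cdkn2c* were higher in TM+ DCs (mean of both treatments) under all 12 alternatives and with each of the 20 arrays left out. The 5 calls of that comparison became 3 with no experiment term (*Cdkn1b* and *Cdkn2b* lost), 3 without experiment 4 (*Cdkn1b* and *Cdkn2d* lost) and 8 after centring on the 75th percentile (*Cdkn1c*, *Cdkn2a* and *Rbl2* added, all lower). The share of all genes called moved as well, from 37.3% to 24.2% with no experiment term, 12.4% without experiment 4 and 60.1% after that centring. That centring moved the median of all genes from -0.08 to -0.20 and the share of calls that were higher from 49.9% to 24.5%, and without experiment 4 that share was 60.1%. In untreated cultures array weights gave 5 calls in place of 3, with *Cdkn1b* lost and *Cdkn2a*, *Cdkn2b* and *Cdkn2d* added. They called 49.8% of all genes there, in place of 21.1%. The call of *Cdkn1b* there was also lost with all clusters, with no experiment term and without experiment 4. In sTM-treated cultures experiment as a fixed factor and the replicate block each gave 5 in place of 3, with *Cdkn1b* and *Cdkn2b* added as lower. Of all genes they called 27.3% and 24.1%, in place of 24.0%. For treatment in sorted DCs, array weights gave 1 call (*Rbl1*) and leaving out experiment 4 gave 1 (*Cdkn2b*), as it did within TM+ DCs (1, *Cdkn2b* at 1.15), in place of 0. Of all genes, array weights called 9.23% and leaving out experiment 4 called 2.28%, in place of 0.0150%. Within TM+ DCs the latter called 3.19% of all genes, in place of 0.853%. With 1 array left out, the calls ranged from 5 to 6 for the mean of both treatments and from 2 to 3 in untreated cultures. *Cdkn2d* changed sign within the treated cultures of experiment 3 (-0.0877). The causes were not tested.

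Same-numbered arrays deviated together in experiment 1 (r from 0.56 to 0.75) but not in sorted DCs (r from -0.54 to 0.40). The numbers were therefore not taken as pairs in the main fits. The counts of pairs in sorted DCs did match arrays by number. Where the fractions of a set overlapped, these counts depend on that numbering. For *Rbl1*, *Cdkn2c*, *Cdkn2b* and *Cdkn1b* the fractions overlapped in no set, and their counts do not depend on it. Of 2331 values of single genes under the alternatives and within single experiments, 15 lost and 25 gained a call. Among the alternative fits 111 values changed sign, of which 0 were of a value called in either fit. Within single experiments 1 value had the opposite sign to a called difference, that of *Cdkn2d* given above. The number of arrays, with 4 untreated arrays a fraction, limits what treatment and interaction can show.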

Other observations

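*Cdkn1a*, the gene of the CDK inhibitor p21, is named only by a cluster that also carries the symbol *4930567H12Rik*, and its value cannot be given to one of both genes. The difference of that cluster, TM+ minus TM-, was -0.32 (standard error 0.11, limma's adjusted p = 0.0415 over all 35556 clusters), and it was not called for treatment in sorted DCs (0.09, adjusted p = 0.922) or unsorted DCs (-0.16, adjusted p = 0.9998).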
